A study of Mus musculus with 24 samples.

Results

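Tumors of mice that carried transgenes for both human IGF2BP1 and human MYCN (TIM, 8 libraries) were compared with normal adrenal glands of Cre-negative mice (AG, 3 libraries). These 11 of the 24 bulk RNA-seq libraries were chosen by the genotype and source in the sample labels. TIM carried the genotype written IMP1/MYCN, CRE +, where IMP1 is another name of IGF2BP1. AG carried the genotype written CRE -, and the labels name no transgene for it. Both transgenes had been placed in the Rosa26 locus behind a stop cassette flanked by loxP sites. Cre came from a Dbh-driven transgene, which limits it to cells that make noradrenaline and their relatives, so blood vessels, immune cells and other cells of a tumor sample carried silent transgenes. The mice had been backcrossed to C57Bl6/N, and the labels give no age. The source was written as tumor for 5 TIM libraries, as tumor adrenal gland for 2 and as tumor spine for 1. The labels do not tie libraries to animals, and an animal could bear several tumors, so the p-values measure only the spread between samples. That spread was estimated from all 24 libraries, not from these 11 alone.

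Neuroblastoma is a childhood tumor of the sympathetic lineage, the neural crest cells that form the sympathetic ganglia and the adrenal medulla. The normal adrenal gland is mostly cortex, which makes steroid hormones from cholesterol, around a small medulla of chromaffin cells, which make and secrete catecholamines. MYCN is a transcription factor whose amplification marks high-risk disease, and IGF2BP1 is an RNA-binding protein of fetal and tumor cells that protects bound mRNAs, that of MYCN among them, from decay.

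Values are FPKM, fragments per 1000 bases of gene length and 1000000 fragments, as the authors scaled them after correcting for a batch effect. A gene was tested if it reached 1 FPKM in at least 3 of the 24 libraries, which left 10171 of 21833 protein-coding genes. Differences are given on the scale log2(FPKM + 1), TIM minus AG, with their standard error. On this scale the change of weakly expressed genes is understated. A gene was called where limma's test, fitted across all tested genes in all 4 groups of the series, gave a Benjamini-Hochberg adjusted p-value (FDR) below 0.05. Libraries are numbered by their place in the deposited table, which matches no number in the labels.

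Several features of the libraries bear on all results. All AG libraries came from run 1, while 3 TIM libraries came from run 2 and 5 from run 3, so group and run cannot be told apart. The corrected values held extreme entries: 126 genes passed 1000 FPKM in some library of the series, 53 of them in a TIM library and 0 in AG. The 126 genes took 64.5 to 97.3% of all recovered reads in TIM, against 0.702 to 0.792% in AG. Outside those genes AG held 17312333 to 17751287 recovered reads and TIM 14531715 to 23653740. AG libraries resembled each other more than TIM libraries did, with a median Pearson r over tested genes of 0.987 for the 3 AG pairs and 0.791 for the 28 TIM pairs. The libraries held the defining markers of their labels: Star and Nr5a1 of cortex and Dbh of medulla in every AG library, and Hand2 and Dbh of the sympathetic lineage in every TIM library. The 4 Y-linked genes had 0 reads in all 3 AG libraries and in TIM 5 and TIM 7, and were present in the other 6 TIM libraries, so sex and group partly coincided.

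The transgenes themselves were not visible as features of their own, since the table counts mouse genes. The mouse gene Igf2bp1 was close to 0 throughout, at 0.00385, 0.00294 and 0.000973 FPKM in AG and at most 0.0796 FPKM in TIM, and was not tested. Mouse Mycn (chr12:12986076-12992915 in GRCm39) stood at 0.58, 0.559 and 0.823 FPKM in the 3 AG libraries. In TIM it was 1.2 at the lowest, 2.97 at the median and 4.38 FPKM at the highest. All 8 tumors thus lay above all 3 glands, and the gene was called higher (1.15 ± 0.41, FDR 0.0214, limma). That call was lost without AG 1 (FDR 0.0677) and without AG 2 (FDR 0.0708), and limma-voom on recovered reads did not make it (FDR 0.0563). Myc, the family member of most dividing cells, went the other way. It measured 4.58, 4.32 and 4.53 FPKM in AG and 0.15 at the lowest, 0.389 at the median and 1.13 FPKM at the highest in TIM, with no overlap (-1.95 ± 0.19, FDR 1.55e-08).

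Of all tested genes, 5190 were called (51%). The higher calls were 2293 genes (22.5%) and the lower calls 2897 (28.5%). Every TIM library lay above every AG library for 17.8% of the tested genes and below for 24.7%. The median log2 difference over all tested genes was -0.00486. Shifts of at least 2 log2 units were called for 343 genes upward and 264 downward. The split between directions depended on the scaling: 44.2% of the calls were higher here, against 31.5% with limma-voom on recovered reads (1525 higher, 3311 lower), where the median of all genes moved to -0.23. The counts by gene list are to be read against these shares. In whole tissue, fewer cells of a type and less RNA per cell cannot be told apart.

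Among called genes that stayed under 1000 FPKM in every library, held at least 10 recovered reads in an AG or TI library and did not overlap between the groups, most of the 12 largest rises were genes of neurons and of neuroendocrine secretion. Cartpt encodes a neuropeptide precursor (CART) and lies at chr13:100034990-100047006. It was at 0.212, 0.126 and 0.317 FPKM in AG and 46 at the lowest, 137 at the median and 427 FPKM at the highest in TIM (6.78 ± 0.64, FDR 6.1e-09). Even the lowest tumor lay far above the highest gland. Tubb3, the neuronal beta-tubulin at chr8:124138163-124150092, was at 0.918, 0.651 and 0.726 FPKM in AG and 66 at the lowest, 104 at the median and 121 FPKM at the highest in TIM (5.78 ± 0.31, FDR 2.96e-13). The 8 tumors lay close together and far from the glands. Gap43, a growth cone protein, measured 0.0734, 0.125 and 0.0928 FPKM in AG and 30.2 at the lowest, 50.4 at the median and 94.3 FPKM at the highest in TIM (5.6 ± 0.54, FDR 9.28e-09). Basp1, another membrane protein of growth cones, measured 1.2, 0.752 and 0.732 FPKM in AG and 52.7 at the lowest, 92.3 at the median and 111 FPKM at the highest in TIM (5.54 ± 0.40, FDR 6.32e-11). Both were higher in all 8 tumors than in any gland.

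Tubb2b, a tubulin of young neurons, went from 0.414, 0.398 and 0.357 FPKM in AG to a range of 44.5 to 124 FPKM, median 83.8, in TIM and changed by 5.87 log2 units. The neurofilament genes Nefl and Nefm rose by 5.09 and 4.73, with wide spreads in TIM of 13.1 to 99.9 FPKM, median 42.5, and 7.11 to 123 FPKM, median 26.9. Tagln3, an actin-associated protein of neurons, rose by 4.81, Bex2, a small adaptor protein, by 4.61, and Stmn4, a stathmin that binds tubulin, by 4.59. Vgf, a secreted neuropeptide precursor, rose by 5.58, with the tumors spread over 3.18 to 469 FPKM, median 96.7. Egr4, an immediate early transcription factor, is listed at 0 in all 3 AG libraries and lay between 13.6 and 635 FPKM in TIM (FDR 1.68e-06), but limma-voom on recovered reads did not call it (FDR 0.208). In the plot of single libraries the squares of AG and the circles of TIM stand on opposite sides for each of these genes.

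**Figure D1:**
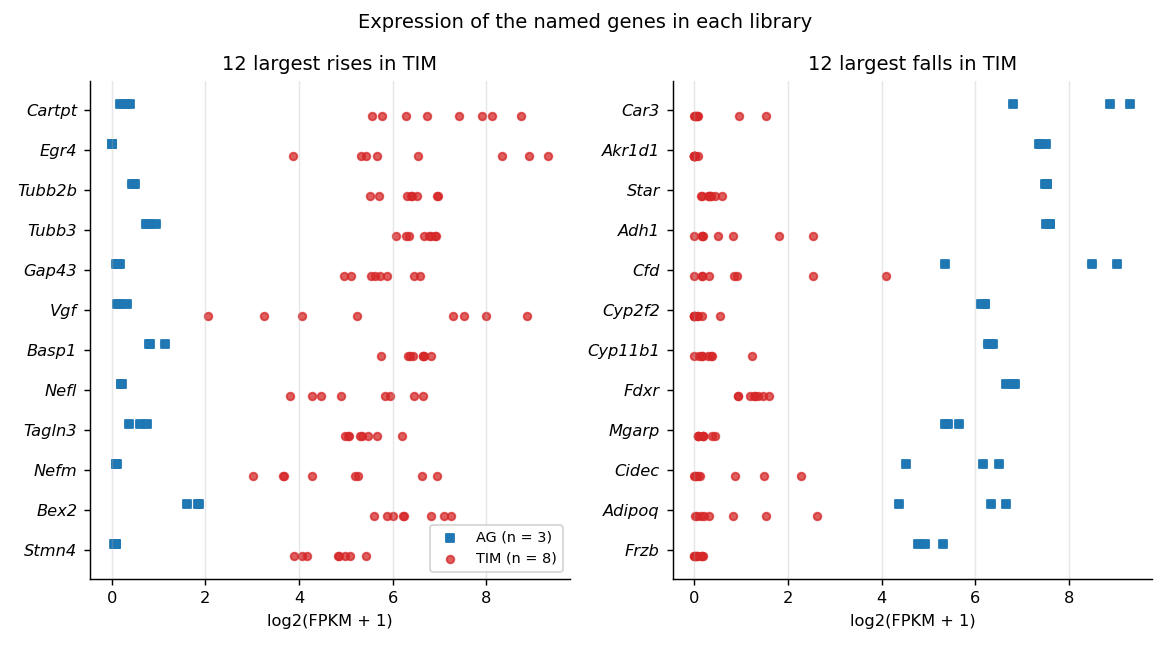
Level of the 12 largest rises and the 12 largest falls in each library, on the axis log2(FPKM + 1), with AG as squares (3 libraries) and TIM as circles (8 libraries). No TIM library overlaps an AG library for any of the 24 genes, as the naming rule required. The circles of Vgf, Egr4 and Nefm are spread far wider than those of Tubb3, which lie between 66 and 121 FPKM.

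By the same rule, most of the 12 largest falls were genes of the adrenal cortex and of fat. The source names adrenal gland for 2 of the 8 TIM libraries and for all AG libraries, so tissue and group partly coincided. Star, which carries cholesterol into mitochondria for steroid synthesis, lies at chr8:26296583-26306010. It was at 178, 184 and 183 FPKM in AG and 0.10 at the lowest, 0.245 at the median and 0.51 FPKM at the highest in TIM (-7.19 ± 0.23, FDR 1.87e-17). All 8 tumors held less than 1 FPKM of a gene that the glands expressed at a nearly constant level. Akr1d1, a steroid reductase, was at 162, 179.9 and 165 FPKM in AG and at most 0.0554 FPKM in TIM (-7.39 ± 0.19, FDR 1.99e-19). Cyp11b1, the last enzyme of corticosterone synthesis, was at 81.9, 78.7 and 76.2 FPKM in AG and 0 at the lowest, 0.172 at the median and 1.34 FPKM at the highest in TIM (-5.98 ± 0.26, FDR 5.53e-15). Fdxr, the reductase that feeds electrons to mitochondrial P450 enzymes, was at 111, 114 and 99.5 FPKM in AG. In TIM it was 0.908 at the lowest, 1.44 at the median and 2.01 FPKM at the highest (-5.51 ± 0.15, FDR 6.14e-19). Fdxr thus was measurable in every tumor, whereas Akr1d1 was at 0 in most.

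Outside the steroid pathway, Adh1, an alcohol dehydrogenase, fell by 6.78 log2 units, Cyp2f2, a P450 enzyme, fell by 6.06 and Mgarp, a mitochondrial protein of steroid-making cells, fell by 5.27. Frzb, a secreted Wnt antagonist, went from 38.7, 26.4 and 29.2 FPKM to at most 0.143 FPKM. The 4 remaining genes of the 12 largest falls, Car3, Cfd, Cidec and Adipoq, mark fat cells. Car3, a carbonic anhydrase of fat, stood at 111, 471 and 631 FPKM in AG and 0 at the lowest, 0.0434 at the median and 1.87 FPKM at the highest in TIM (-8.0 ± 0.41, FDR 1.19e-13). Adipoq, the hormone adiponectin, stood at 19.6, 79.7 and 99.7 FPKM in AG and 0.00804 at the lowest, 0.201 at the median and 5.16 FPKM at the highest in TIM (-5.07 ± 0.47, FDR 4.46e-09). AG 1 held far less of both than AG 2 and AG 3, yet still more than any tumor. All 9 adipocyte markers tested were called lower, with a median difference of -4.61. The mean of the fat markers was 3.56 in AG 1 and 5.56 and 5.87 in AG 2 and AG 3, while the mean of the steroid list was 3.62, 3.61 and 3.61, both in log2(FPKM + 1).

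The steroid program as a whole was lower in the tumors. Of 22 genes listed for steroid synthesis and its control, 20 passed the filter, 16 were called lower and 1 higher, with a median difference of -3.97. Nr5a1 (SF-1), the transcription factor that defines steroid-making cells, is named here after its values were seen and measured 8.31, 7.66 and 7.91 FPKM in AG and 0 at the lowest, 0.00131 at the median and 0.0598 FPKM at the highest in TIM (-3.14 ± 0.08, FDR 8.12e-20). No tumor thus held more than a trace of it. The 3 genes not called were Cyp11b2, Nr0b1 and Agtr1a, and the first pair was near 0 in AG already. The exception upward was Kcnk9, a potassium channel of zona glomerulosa cells that neurons also express, at 1.76, 1.43 and 1.48 FPKM in AG and 2.6 at the lowest, 8.86 at the median and 12.4 FPKM at the highest in TIM (1.73 ± 0.32, FDR 8.51e-05).

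Cholesterol handling did not move in 1 direction. The lower calls included genes of uptake and storage. Scarb1, the receptor that takes cholesterol from high-density lipoprotein, went from 37.6, 27.1 and 29.7 FPKM in AG to a range of 0.935 to 2.01 FPKM, median 1.13, in TIM (-3.86 ± 0.26, FDR 1.56e-11). Soat1, which esterifies cholesterol for storage, went from 14.3, 12.2 and 12.6 FPKM in AG to a range of 0.112 to 0.479 FPKM, median 0.298, in TIM (-3.46 ± 0.10, FDR 8.33e-18), and Lipe, which frees stored cholesterol and also acts in fat cells, changed by -3.26. Over the 21 tested genes of cholesterol supply 8 were called lower and 5 higher, and the median was -0.28. Among the higher calls the synthesis enzymes Sqle, Fdft1 and Cyp51 and the regulator Srebf2, named after their values were seen, differed by 0.65 to 0.79. The number of higher calls dropped to 3 without AG 1 or without TIM 3 and to 2 without AG 2, without AG 3 or with limma-voom.

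Of 9 tested genes of the gland's capsule and outer cortex 6 were called lower and 0 higher, and 3 of them were near 0 in the tumors. Shh, the hedgehog ligand made by outer cortical cells, was at 6.16, 4.98 and 5.99 FPKM in AG and at most 0.027 FPKM in TIM (-2.73 ± 0.10, FDR 2.11e-16). Wnt4, a Wnt ligand of the outer cortex, was at 14.2, 12.3 and 12.6 FPKM in AG and 0.00255 to 0.127 FPKM, median 0.0214, in TIM (-3.76 ± 0.14, FDR 7.35e-16). Rspo3, the capsular R-spondin that amplifies Wnt signals, was at 1.39, 1.36 and 1.36 FPKM in AG and was listed at 0 in all tumors but TIM 6 (-1.24 ± 0.09, FDR 3.34e-11). Summed over the 13 genes listed, the level was 38.6 to 42.1 FPKM in AG and 1.16 to 6.53 FPKM in TIM. In the heat map of list means the rows of steroid synthesis, capsule and fat are low across all 8 tumors.

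Endothelial markers were also lower, whereas those of macrophages, fibroblasts and pericytes were mixed or mostly not called. Of 12 endothelial markers 11 were called lower, with a median of -0.97. Tek, the angiopoietin receptor, went from 3.54, 3.29 and 3.14 FPKM in AG to a range of 0.0143 to 0.273 FPKM, median 0.0716, in TIM (-1.98 ± 0.10, FDR 1.6e-13), and Kdr, the main VEGF receptor, from 4.09, 3.59 and 3.77 FPKM in AG to a range of 0.0485 to 0.685 FPKM, median 0.28, in TIM (-1.88 ± 0.15, FDR 4.36e-10). The endothelial count dropped to 6 without any one AG library and to 7 without TIM 3 or without TIM 6, with Plvap among the calls lost. Macrophage markers did not share this direction: 7 of 9 were not called, the 2 lower calls (Csf1r and Adgre1) were both lost without AG 1, without AG 2 or without TIM 4, and C1qb, a complement component of macrophages, measured 17.3, 12.7 and 9.79 FPKM in AG and 11.6 to 24.6 FPKM, median 18, in TIM. Of 10 fibroblast markers 3 were called lower and 2 higher, or 1 higher without AG 2, and the median was 0.27. The differences ran from -2.24 (Dcn) to 2.13 (Thy1), and Col1a1 rose by 1.51 to 1.91 when single libraries were left out. Dcn, a matrix proteoglycan, went from 8.28, 6.64 and 6.42 FPKM in AG to a range of 0.0199 to 3.71 FPKM, median 0.211, in TIM (-2.24 ± 0.38, FDR 3.03e-05). Of 4 tested markers of pericytes and smooth muscle 2 were higher, and Acta2, the actin of contractile cells, rose from 1.87, 1.38 and 1.29 FPKM in AG to a range of 2.38 to 14.6 FPKM, median 7.9, in TIM (1.71 ± 0.53, FDR 0.0102). The other 2 were not called: Tagln differed by 0.99 (FDR 0.0959) and Des by -0.44 (FDR 0.378).

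Antigen presentation was lower in most tumors. Of 14 tested genes 12 were called lower and 0 higher, and the median was -1.42. Cd74, the chaperone of MHC class II, stood at 64.3, 54 and 42.4 FPKM in AG and 1.79 at the lowest, 3.53 at the median and 34.8 FPKM at the highest in TIM (-2.99 ± 0.64, FDR 0.000431). H2-Eb1, an MHC class II chain, stood at 19.6, 17 and 12.4 FPKM in AG and 0.285 at the lowest, 0.884 at the median and 9.51 FPKM at the highest in TIM (-2.68 ± 0.49, FDR 7.89e-05). The upper ends came from TIM 5 and TIM 1, at 34.8 and 22.6 FPKM of Cd74. The other 6 tumors held at most 7.51 FPKM. The same pair had the highest means of the fat markers (2.52 and 1.47) and of the Schwann cell markers (2.02 and 1.68), and the part of such cells in the result was not tested.

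Most genes on the 2 neuronal lists were higher. Of 24 genes of the neuronal cytoskeleton and axon growth, 22 were called higher and 0 lower, with a median of 3.83. Of 19 tested genes of synaptic vesicles and exocytosis, 17 were called higher and 0 lower, with a median of 2.45. Syp, the vesicle protein synaptophysin, rose from 1.64, 1.35 and 1.82 FPKM in AG to a range of 21.2 to 105 FPKM, median 30.0, in TIM (3.82 ± 0.40, FDR 3.58e-08). Cplx1, a complexin that clamps the release machinery, rose from 0.566, 0.408 and 0.439 FPKM in AG to a range of 7.28 to 27.5 FPKM, median 15.4, in TIM (3.51 ± 0.29, FDR 7.99e-10). Syn1, which tethers vesicles, rose by 2.96. None of these 3 genes overlapped between tumors and glands.

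Transcription factors of sympathoblasts, the dividing precursors of sympathetic neurons, were higher for 11 of 20 tested genes and lower for 1. Tfap2b, a neural crest factor, was at 0.432, 0.286 and 0.409 FPKM in AG and 5.31 at the lowest, 10.3 at the median and 13.7 FPKM at the highest in TIM (2.89 ± 0.26, FDR 2.53e-09). Lmo1, a transcription cofactor linked to neuroblastoma risk, was at 0.667, 0.594 and 0.911 FPKM in AG and 8.29 at the lowest, 13 at the median and 14.7 FPKM at the highest in TIM (2.9 ± 0.37, FDR 8.29e-07). Both were higher in all 8 tumors than in any gland. Tbx3 was the lone fall, from 10.1, 10.2 and 9.85 FPKM in AG to a range of 0.297 to 0.801 FPKM, median 0.576, in TIM (-2.84 ± 0.14, FDR 3.82e-14). Its relative Tbx2, named after its values were seen, was not called and overlapped between the groups (0.43, FDR 0.215). Meis2, also named afterwards, was not called, at 8.51 and 10.9 FPKM in TIM 3 and TIM 6 and at most 0.291 in the others.

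Chromaffin genes were higher in number but far less even. Of 19 tested genes 11 were called higher and 1 lower (Pcsk1, not called without AG 1 or without AG 3), with a median of 2.04. Dbh, which turns dopamine into noradrenaline and whose promoter drives the Cre, stood at 15.7, 10.9 and 15.3 FPKM in AG and 18.8 at the lowest, 109 at the median and 593 FPKM at the highest in TIM (3.08 ± 0.72, FDR 0.00102). Even the lowest tumor lay above the highest gland, while the tumors spanned more than an order of magnitude. Scg5, a chaperone of hormone processing, stood at 2.24, 1.92 and 2.47 FPKM in AG and 5.98 at the lowest, 26.1 at the median and 72.2 FPKM at the highest in TIM (2.86 ± 0.50, FDR 4.25e-05). Of the 7 genes not called, Chgb, a granule protein named after its values were seen, was at 68.2, 51 and 73.3 FPKM in AG and 9.7 to 805 FPKM, median 68.1, in TIM (difference 0.07, FDR 0.971). Npy, Th and Chga each passed 1000 FPKM in some library and are counted but not described for that reason.

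Receptors and surface antigens studied in neuroblastoma were higher for 9 of 15 tested genes and lower for 2. Ret, the receptor tyrosine kinase of the GDNF family, was at 0.0565, 0.0435 and 0.0613 FPKM in AG and 1.87 at the lowest, 9.22 at the median and 14 FPKM at the highest in TIM (3.0 ± 0.35, FDR 2.18e-07). Its co-receptor Gfra3 was at 0.471, 0.49 and 0.642 FPKM in AG and 3.74 to 22.5 FPKM, median 8.66, in TIM (2.67 ± 0.56, FDR 0.000341). Ncam1, a cell adhesion molecule, was at 0.68, 0.592 and 0.717 FPKM in AG and 3.79 to 13.2 FPKM, median 10.3, in TIM (2.64 ± 0.24, FDR 4.78e-09), and L1cam rose by 2.22. None of these 4 genes overlapped between the groups. Alk, the kinase mutated in familial neuroblastoma and named here after its values were seen, was between 0 and 0.00481 FPKM in AG. It was 0.363 FPKM in TIM 8 and 2.17 to 2.7 in the other 7 tumors (1.61 ± 0.32, FDR 0.00021).

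**Figure D2:**
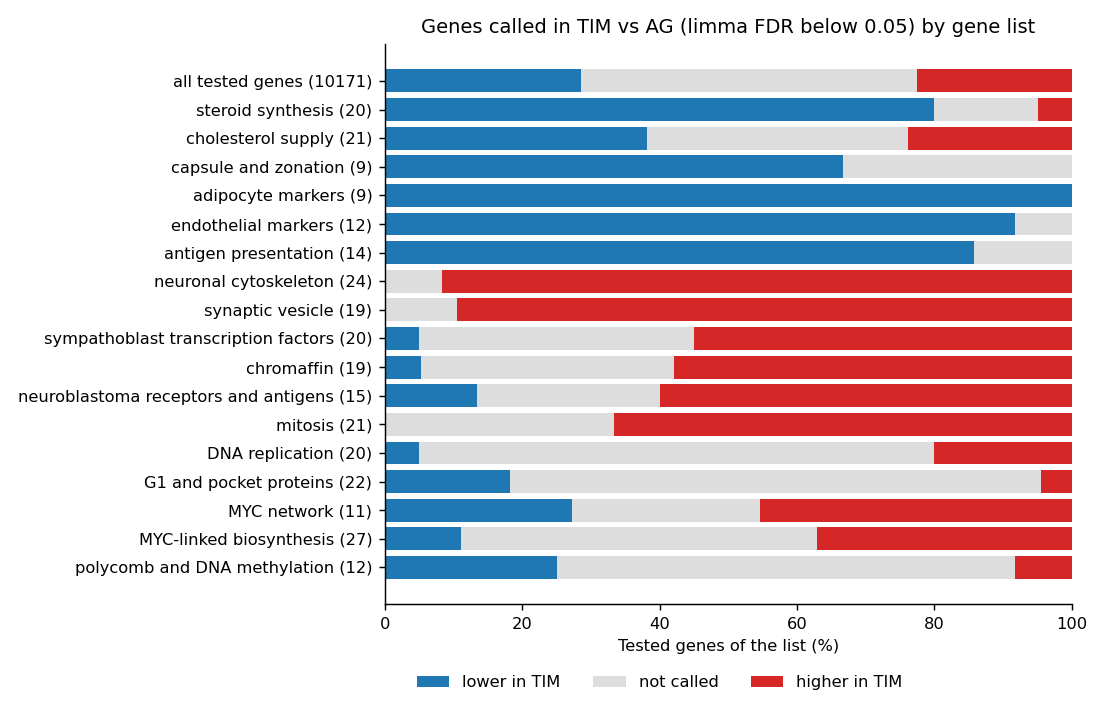
Share of tested genes called higher, not called and called lower in TIM against AG for 17 gene lists and for all tested genes, in percent of the genes tested. The bar of all tested genes shows 22.5% higher and 28.5% lower, neuronal cytoskeleton has 22 of 24 genes higher, and adipocyte markers have 9 of 9 lower.

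In the plot of calls by list, the neuronal and vesicle lists stand at one end and the fat, endothelial, antigen presentation and steroid lists at the other, with the background of all tested genes between them.

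Genes of mitosis and of DNA replication differed in how many were called. Of 21 tested mitosis genes 14 were called higher and 0 lower (median 1.07). Of 20 DNA replication genes 4 were higher, a share below the 22.5% of all tested genes, 1 was lower and 15 were not called (median 0.49). Plk1, a kinase that drives mitotic entry and spindle assembly, was at 0.504, 0.393 and 0.36 FPKM in AG and 0.38 at the lowest, 3.77 at the median and 8.82 FPKM at the highest in TIM (1.61 ± 0.43, FDR 0.00362). Ccnb1, the mitotic cyclin, was at 0.177, 0.135 and 0.121 FPKM in AG and 0.0391 at the lowest, 2.53 at the median and 6.41 FPKM at the highest in TIM (1.57 ± 0.45, FDR 0.00599). Cdk1, its kinase partner, was at 0.389, 0.266 and 0.229 FPKM in AG and 0.143 at the lowest, 2.76 at the median and 6.02 FPKM at the highest in TIM (1.4 ± 0.43, FDR 0.00865). In all of these 1 tumor, TIM 5, set the low end and the other 7 lay above all glands. Top2a, the topoisomerase that untangles replicated DNA, was 0.121 FPKM in TIM 5 and 0.66 to 8.09 in the rest, against 0.415, 0.305 and 0.273 FPKM in AG (1.5 ± 0.57, FDR 0.0313). The Top2a call was lost without any one AG library (FDR 0.0717 to 0.0873) and without TIM 3 or TIM 6 (FDR 0.0534 and 0.0518). It was also lost when only TIM and AG entered the fit (FDR 0.0564).

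Birc5 (survivin), a subunit of the chromosomal passenger complex that also blocks cell death, was at 0.405, 0.299 and 0.277 FPKM in AG and 0.0937 at the lowest, 2.43 at the median and 5.09 FPKM at the highest in TIM (1.23 ± 0.47, FDR 0.034). TIM 5 lay below the glands and the other 7 tumors above them. The Birc5 call was lost without any one AG library (FDR 0.075 to 0.0931) and without TIM 3, 6, 7 or 8 (FDR 0.0508 to 0.057). It was also lost when only TIM and AG entered the fit (FDR 0.0627). The mitosis count itself, 14 with all libraries, ran from 5 to 19 when single libraries were left out. It dropped to 6, 5 and 5 without AG 1, AG 2 and AG 3. It was 7 without TIM 3 or TIM 6, 8 without TIM 7 and 9 without TIM 8. With limma-voom 0 mitosis genes were called higher, and 4 were when only TIM and AG entered the fit. The DNA replication count rose from 4 to 9 without TIM 5 and fell to 2 without any one AG library, where its lower call was lost too. That count was also 2 when only TIM and AG entered the fit.

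Many mitosis genes share promoter elements that cell cycle complexes bind, the CHR element and the CCAAT box. The promoters of the 4 named mitosis genes are shown because all 4 genes were lowest in TIM 5 and next lowest in TIM 2. They are RefSeq sequences of GRCm38.p6, from 250 bases before to 50 bases after the gene start, 5′ to 3′ on the coding strand. The windows lie at chr7:122159185-122159484, plus strand for Plk1, chr13:100786437-100786736, minus strand for Ccnb1, chr11:99024140-99024439, minus strand for Top2a and chr10:69352863-69353162, minus strand for Cdk1. Capitals mark the CHR letters TTTGAA and the letters of the CCAAT box, on either strand.
Plk1: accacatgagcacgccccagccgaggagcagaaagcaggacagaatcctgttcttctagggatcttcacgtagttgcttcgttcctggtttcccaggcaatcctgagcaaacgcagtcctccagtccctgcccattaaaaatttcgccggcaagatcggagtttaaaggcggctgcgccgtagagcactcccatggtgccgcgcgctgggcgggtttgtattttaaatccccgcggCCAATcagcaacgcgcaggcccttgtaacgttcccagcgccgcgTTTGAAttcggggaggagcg
Ccnb1: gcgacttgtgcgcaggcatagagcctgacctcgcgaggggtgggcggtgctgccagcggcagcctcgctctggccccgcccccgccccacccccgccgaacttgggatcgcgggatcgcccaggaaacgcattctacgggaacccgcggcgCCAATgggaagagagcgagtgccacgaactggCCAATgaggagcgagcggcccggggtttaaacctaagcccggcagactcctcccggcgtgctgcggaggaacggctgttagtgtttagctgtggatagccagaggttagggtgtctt
Top2a: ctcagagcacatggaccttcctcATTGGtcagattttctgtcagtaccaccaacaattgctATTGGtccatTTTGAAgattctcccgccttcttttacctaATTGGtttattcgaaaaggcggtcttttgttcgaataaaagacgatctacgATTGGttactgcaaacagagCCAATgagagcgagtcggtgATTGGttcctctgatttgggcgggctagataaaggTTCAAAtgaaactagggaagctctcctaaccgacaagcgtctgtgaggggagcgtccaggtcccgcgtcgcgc
Cdk1: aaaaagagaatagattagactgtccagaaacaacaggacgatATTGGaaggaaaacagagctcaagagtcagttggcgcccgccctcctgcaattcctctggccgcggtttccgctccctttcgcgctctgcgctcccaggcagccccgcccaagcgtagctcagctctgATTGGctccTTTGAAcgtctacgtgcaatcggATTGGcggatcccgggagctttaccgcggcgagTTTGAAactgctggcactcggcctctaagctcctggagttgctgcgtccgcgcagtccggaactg

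All 4 windows held a CCAAT box and 3 held the CHR letters, which Ccnb1 lacked in this window. Cdk1 had TTTGAA 71 and 15 bases before its start, and Top2a had TTTGAA 179 and its reverse complement 23 bases before. Plk1 had TTTGAA from base 31 after its start. Of all 32851 promoters in the table, 17.9% held the CHR letters and 37.4% a CCAAT box on either strand. Of the 22 genes on the mitosis list 16 had a promoter in the table, of which 75% held the CHR letters and 87.5% a CCAAT box. Among promoters of all tested genes these shares were 11.4% and 37.2%. The shares are a description without a test and are no check on the calls. The letters describe these windows and say nothing of binding.

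The regulators of G1 were mostly not called, with 1 of 22 tested genes higher and 4 lower. Ccnd2, a D-type cyclin, fell from 11.8, 10.1 and 11 FPKM in AG to a range of 0.066 to 0.608 FPKM, median 0.173, in TIM (-3.28 ± 0.14, FDR 5.53e-15), and Ccnd3, its relative, fell from 14.2, 13.4 and 13.2 FPKM in AG to a range of 0.546 to 3.52 FPKM, median 1.18, in TIM (-2.7 ± 0.25, FDR 4.03e-09). Both were lower in all 8 tumors than in any gland. Ccnd1, the cyclin of this family that neuroblastoma cells express, was named after its values were seen. It was the most abundant of the 3 in TIM at 11.7 to 116 FPKM, median 38.9, overlapped the glands (23.6, 19.3 and 22.1 FPKM) and was not called (FDR 0.319). Cdkn1b (p27), a brake on cyclin-dependent kinases, rose from 1.14, 1.11 and 1.18 FPKM in AG to a range of 4.13 to 15.8 FPKM, median 9.21, in TIM (2.22 ± 0.27, FDR 3.88e-07). Cdkn2c (p18) fell from 7.98, 9.05 and 9.6 FPKM in AG to a range of 0.177 to 2.12 FPKM, median 0.702, in TIM (-2.42 ± 0.29, FDR 3.75e-07). These 2 inhibitors thus moved in opposite directions.

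In the MYC network 5 of 11 tested genes were higher and 3 lower. Mycl, the third family member, was at 0.127, 0.0917 and 0.121 FPKM in AG and 0.307 to 2.77 FPKM, median 0.958, in TIM (0.85 ± 0.29, FDR 0.0168, lost without AG 2 at FDR 0.055 and with limma-voom at FDR 0.195). Mnt, a MAX-binding repressor, was at 2.24, 2.04 and 1.99 FPKM in AG and 1.55 to 6.12 FPKM, median 4.29, in TIM (0.68 ± 0.20, FDR 0.00783), where TIM 8 alone lay below the glands. The higher count was 3 without AG 1 and 2 without AG 2 or with limma-voom. Of 27 biosynthesis genes linked to MYC in the literature, 10 were higher and 3 lower, with a median of 0.19. Tfrc, the transferrin receptor, rose from 0.344, 0.459 and 0.41 FPKM in AG to a range of 2.28 to 10.7 FPKM, median 6.3, in TIM (2.3 ± 0.29, FDR 5.16e-07). Ldha, which makes lactate, rose from 5.94, 9.9 and 12.4 FPKM in AG to a range of 23.2 to 63.1 FPKM, median 39.4, in TIM (1.99 ± 0.33, FDR 2.16e-05). Hspd1, a mitochondrial chaperone, fell from 82.9, 68.8 and 74 FPKM in AG to a range of 7.69 to 31.2 FPKM, median 16.4, in TIM (-2.11 ± 0.30, FDR 3.33e-06).

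Of 12 listed oncofetal RNA-binding and growth genes 6 stayed below the filter, among them Igf2bp1, 2 were called higher and 1 lower. Hmga1, a chromatin protein of embryonic and tumor cells, rose from 2.46, 2.21 and 1.88 FPKM in AG to a range of 12.5 to 24.1 FPKM, median 18.8, in TIM (2.6 ± 0.20, FDR 1.98e-10), and Msi1, an RNA-binding protein of neural progenitors, rose from 0.648, 0.537 and 0.599 FPKM in AG to a range of 2.36 to 5.09 FPKM, median 3.38, in TIM (1.46 ± 0.22, FDR 9.28e-06). Neither overlapped between the groups. Igf1r, the receptor for insulin-like growth factors, fell from 2.0, 1.79 and 1.79 FPKM in AG to a range of 0.0408 to 1.3 FPKM, median 0.578, in TIM (-0.89 ± 0.16, FDR 8.38e-05). Of 12 tested polycomb and DNA methylation genes 3 were lower and 1 higher, Cbx2, whose call was lost without any one AG library (FDR 0.0629 to 0.0672) and with limma-voom (FDR 0.0797). Ezh2, the methyltransferase of polycomb complex 2, was not called, at 0.287, 0.294 and 0.243 FPKM in AG and 0.0609 to 1.87 FPKM, median 1.23, in TIM (FDR 0.134). Its relative Ezh1 fell from 1.4, 1.35 and 1.26 FPKM in AG to a range of 0.387 to 1.22 FPKM, median 0.509, in TIM (-0.56 ± 0.11, FDR 0.000297).

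The 8 tumors differed among themselves along these programs. The mean of the chromaffin genes, in log2(FPKM + 1) without the 3 genes past 1000 FPKM, was 5.52, 5.13, 4.55 and 4.31 in TIM 5, 2, 4 and 1 and 3.35, 3.08, 2.57 and 2.41 in TIM 7, 8, 3 and 6. AG lay at 1.71 to 1.95. The mean of the mitosis genes was 0.17, 0.66, 1.22 and 1.33 in TIM 5, 2, 4 and 1 and 2.16, 2.03, 2.34 and 1.91 in TIM 7, 8, 3 and 6. The 4 tumors with more chromaffin expression were thus the 4 with less mitotic expression. The DNA replication means divided the same 4 tumors from the other 4, from 0.39 in TIM 5 and 0.94 in TIM 2 to 2.51 in TIM 3, with AG at 1.0 to 1.07. In TIM 5, 20 of 21 mitosis genes lay below the lowest gland and 0 above the highest, whereas in the other 7 tumors 17 to 21 lay above the highest. These orders are a description over 8 points, chosen after the values were seen, and the points share scaling and batch correction.

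**Figure D3:**
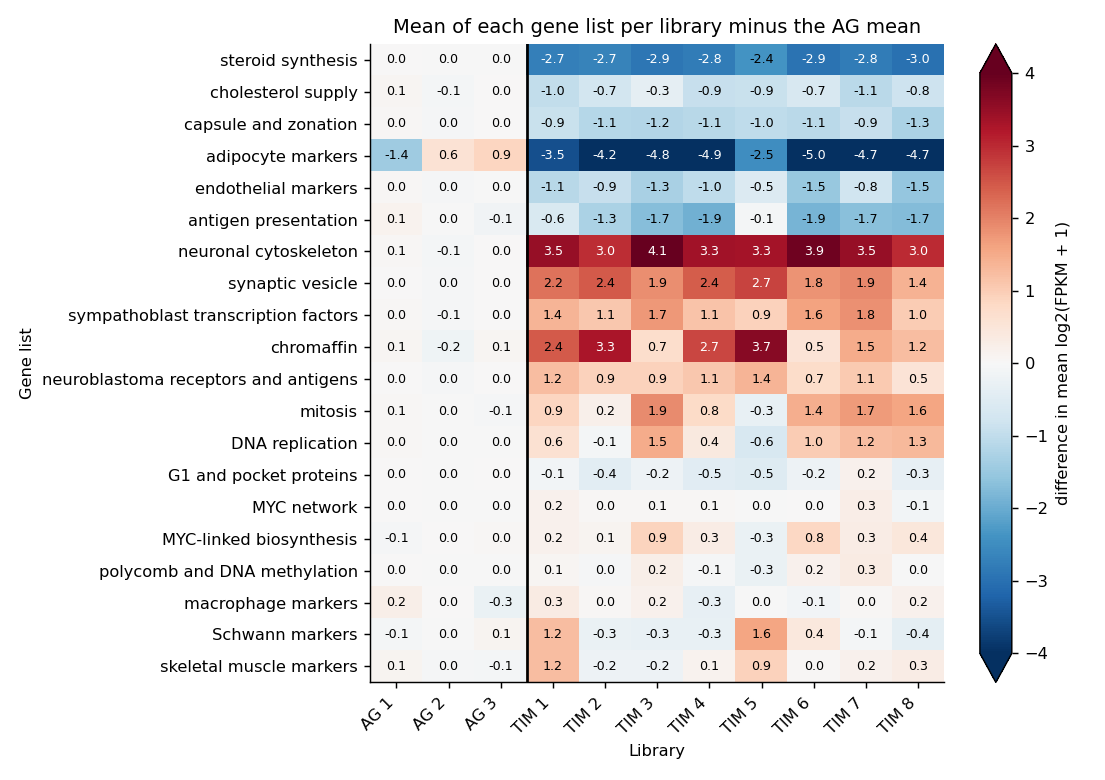
Mean log2(FPKM + 1) of each of 20 gene lists in each of the 11 libraries, minus the mean of the 3 AG libraries, shown as color and number. Steroid, capsule and fat lists are below AG in all 8 TIM libraries, neuronal lists are above it in all 8, and the mitosis and Schwann lists differ among the tumors.

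**Figure D4:**
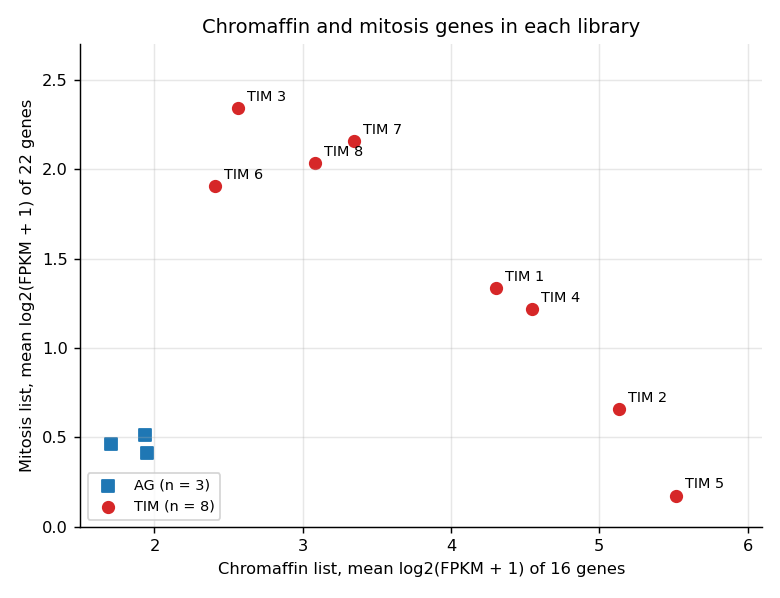
Mean log2(FPKM + 1) of 16 chromaffin genes (horizontal axis) against that of 22 mitosis genes (vertical axis), with AG as squares and TIM as numbered circles. TIM 5 lies at 5.52 and 0.17, TIM 3 at 2.57 and 2.34, and the 3 AG libraries lie together at 1.71 to 1.95 and 0.41 to 0.51.

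In the plot of chromaffin against mitosis means the tumors run from TIM 5 at the lower right to TIM 3, 6, 7 and 8 at the upper left, and no tumor falls among the glands. Ccnb1 is a member of the mitosis list, so its order is no separate check. It stood at 0.0391, 0.853, 1.63 and 2.0 FPKM in TIM 5, 2, 4 and 1 and 4.33, 6.39, 6.41 and 3.07 in TIM 7, 8, 3 and 6. Dbh, a member of the chromaffin list, was 593, 446, 166 and 95.9 FPKM in the first 4 and 116, 102, 58.9 and 18.8 in the others. For Dbh the split did not hold in full, since TIM 1 lay below TIM 7 and TIM 8. TIM 3 and TIM 6 were also the highest in neurofilament, with Nefl at 86.9 and 99.9 FPKM and Nefm at 97 and 123. Low Dbh thus coincided with high neurofilament expression in these 2 tumors. Markers of glia stood out in another pair: Sox10, the factor of Schwann cells and their precursors, was 15.3 and 8.24 FPKM in TIM 5 and TIM 1 and at most 1.19 elsewhere. Foxd3, a neural crest factor, was 20.4 and 7.52 FPKM in the same pair and at most 2.86 elsewhere. Mb, the myoglobin of muscle, was 15.2 and 12.1 FPKM in TIM 5 and TIM 1 and at most 2.15 in the others.

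Without TIM 1 and TIM 5 together, an alternative added after the data were seen, 5390 genes were called, 2390 higher and 3000 lower. The markers of liver, kidney, cartilage and bone, and blood gave 0 calls in either direction, but some lists were hardly tested. Tested were 5 of 6 liver, 1 of 7 kidney, 2 of 6 cartilage and bone and 5 of 6 erythroid markers. Of the tested erythroid markers 4 passed 1000 FPKM in some library. The mean of all kidney markers was 0.016 to 0.0253 in AG, but 0.593 in TIM 5 and 0.342 in TIM 1 (TIM median 0.14), in log2(FPKM + 1). Admixture of these tissues was not tested. Of the pancreatic acinar enzymes, Ctrb1 and Cpa1 were listed at 0 in AG and passed 1000 FPKM in some tumors, so they are among the extreme entries of the corrected table.

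Genes of mouse chromosome 6 were more often higher than those of other chromosomes. Of its 516 tested genes 36.4% were called higher and 21.7% lower, against 22.5% and 28.5% of all tested genes. The median difference was 0.29. Within each tumor the median gene of chromosome 6, relative to the median of all genes, was above 0 in 8 of 8 libraries, from 0.04 to 0.53. TIM 8, TIM 1 and TIM 7 were highest at 0.53, 0.41 and 0.34, and TIM 6 and TIM 5 lowest at 0.04 and 0.05. Chromosomes 4 and 9 leaned the other way, with 15.8 and 20.2% of tested genes higher, 35.5 and 35.6% lower, and relative medians below 0 in 8 of 8 tumors. Chromosome X had a median difference of 0.11. Its relative median, and that of chromosome 10 (at most 0.06), was also above 0 in 8 of 8, and those of chromosomes 2 and 19 (down to -0.07 and -0.14) were below 0 in 8 of 8. These shares are a description without a test. Whether copy number, gene content or the mix of cells moved with these medians was not tested.

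**Figure D5:**
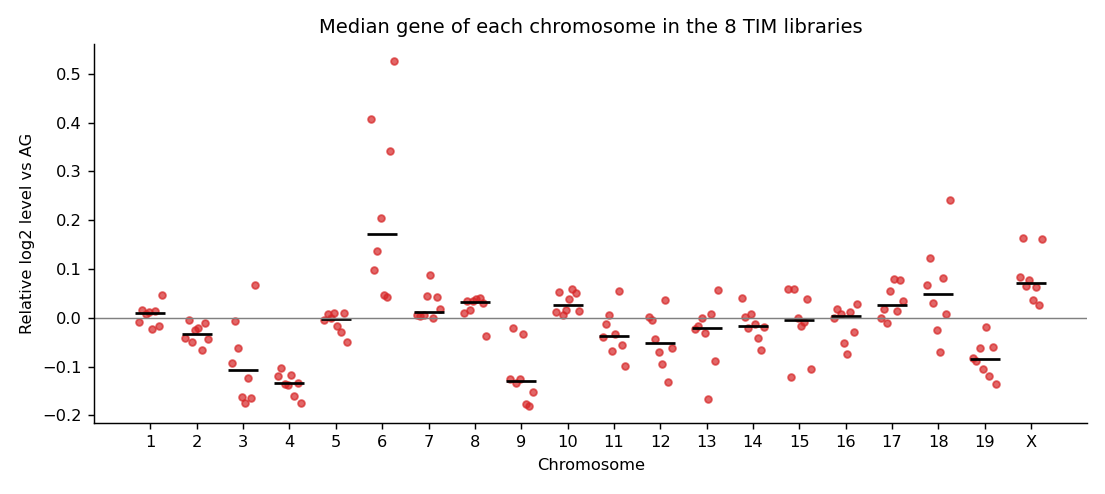
Median gene of each chromosome in each of the 8 TIM libraries, as the log2(FPKM + 1) difference from the AG mean minus the median of all tested genes in that library, with a dash at the median of the 8. Chromosome 6 lies above 0 in all 8 libraries and reaches 0.53, while chromosomes 4 and 9 lie below 0 in all 8.

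In the plot by chromosome the points of chromosome 6 are spread wider than those of its neighbors, with 3 tumors well above the others.

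Against tumors with the IGF2BP1 transgene alone (TI, 8 libraries, IGF2BP1 +/+ or +/-, CRE +), 2332 genes (22.9%) were called for TIM, 1017 higher (10%) and 1315 lower (12.9%). TI came from run 1 for 6 libraries and from runs 2 and 3 for 1 each, so run and group largely coincide here too. Of the 12 largest rises, Egr4 and Vgf were higher in TIM than in TI. Vgf was at 0.983 to 7.61 FPKM, median 1.86, in TI against 3.18 to 469 FPKM, median 96.7, in TIM (3.93 ± 0.73, FDR 0.000782). Egr4 was at 0 to 7.3 FPKM, median 2.14, in TI (5.02 ± 0.67, FDR 3.5e-05). The neuronal cytoskeleton list did not separate the tumor groups in 1 direction, with 1 gene higher in TIM and 3 lower, nor did the steroid list, with 1 gene each way.

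On the mitosis and G1 lists most genes that differed were lower in TIM than in TI. Of 21 mitosis genes 7 were lower and 0 higher (median -0.68), and of 22 G1 genes 8 were lower and 1 higher. Over all tested genes 12.9% were lower and 10% higher. The mean of the mitosis genes was 1.1 to 2.93 in TI, in log2(FPKM + 1). Among the TIM tumors only TIM 5 (0.17) and TIM 2 (0.66) lay below that range. Of 20 DNA replication genes 2 were lower and 1 higher, which did not exceed the shares of all tested genes. The higher gene of the replication list was Ccne1, the cyclin of S phase entry (0.70 ± 0.18, FDR 0.00741). Birc5 was at 2.14 to 14.5 FPKM, median 6.15, in TI (-1.22 ± 0.35, FDR 0.0155). Mouse Mycn was at 1.57 to 15.6 FPKM, median 7.67, in TI (-1.14 ± 0.30, FDR 0.0094), so the endogenous gene was lower in the tumors that also carried the MYCN transgene. Vesicle genes leaned upward, with 5 of 19 higher in TIM and 0 lower (median 0.30). Gfra3 was lower than in TI (-1.66 ± 0.41, FDR 0.00653) and Ret higher (0.85 ± 0.26, FDR 0.0221). These receptors thus differed in opposite directions. Ldha was 5.4 to 17.9 FPKM, median 15.2, in TI and higher in TIM (1.52 ± 0.24, FDR 0.000212). When only these 2 groups entered the fit, the number of genes called was 1309 in place of 2332.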

How the data were processed

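Frozen tumors and adrenal glands were lysed, and strand-specific poly(A) libraries were sequenced on an Illumina NovaSeq instrument. Per the submitters' processing notes and the study's methods, the authors trimmed reads with cutadapt 2.8, aligned them with HISAT2 2.1.0 to mm39, used SAMtools 1.10 and counted with featureCounts 2.0.0. The annotation is not given in the sources used here. The authors corrected the counts for the run with ComBat-seq, scaled them by TMM in edgeR 3.40 and deposited FPKM. FPKM times gene length was a whole multiple of 1 step per library for 100% of positive values (tolerance 0.1 read), which gave corrected reads, not sequencing depth. AG and TIM share no run, so a correction by run could move the differences between them. The table also holds the authors' log2 fold changes, p-values and FDRs against AG, which were not used.

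Columns were assigned to groups, not to single samples, since their names match no label number. log2(FPKM + 1) was fitted with limma 3.58.1 (R 4.3.3; empirical Bayes with a mean trend) in all 24 libraries, Benjamini-Hochberg adjusted over 10171 genes. Scripts were tested on simulated data without genes above 1000 FPKM, with the same spread in all groups and no run effect or batch correction. Named were the 12 largest rises and falls called without overlap, under 1000 FPKM in every library and with at least 10 recovered reads in an AG or TI library (4018 genes), up to 4 members per list by absolute difference, and Igf2bp1, Mycn and Birc5. Some genes that this rule selects are not reported here. Other genes named were chosen after their values were seen. Groups and gene lists were chosen with earlier results of these data known. Gene coordinates are from GENCODE M39 on GRCm39 for 21687 of 21833 genes. Promoters come from RefSeq on GRCm38.p6 and carry that build's coordinates. Alternatives were another pseudocount (0.1), no filter, a stricter filter, other scalings, limma-voom on recovered reads, group weights, fewer groups and leaving out each library. Steroid and neural genes with overlapping or near-identical copies (Hsd3b, Akr1b, tubulin families) can share reads.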

Additional observations from a re-analysis of the deposited data

Results flagged for a closer look

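Of 142 values tested in the 8 TIM libraries, 12 had 1 library set apart from the rest by a gap larger than Dixon's critical share of the group's range. Chance sets apart about 1 in 20. TIM 8 gave 4 of these, TIM 5 gave 3 and TIM 2 gave 2. AG, with 3 libraries, was not tested.

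TIM 8 was lowest in Ncam1, the adhesion molecule (3.79 FPKM, next 8.17), and in the repressor Mnt (1.55, next 3.66). It was highest in Alas2, the heme synthesis enzyme of red cell precursors (4.61 FPKM, next 1.29), and in the mean of the erythroid markers (1.33 in log2(FPKM + 1), next 0.63).

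TIM 5 was highest in genes that were far lower in TIM than in AG: Cyp11b1 (1.34 FPKM, next 0.307), Cyp2f2 (0.472, next 0.126) and Lipe (4.33, next 1.22). These values remained far below the glands, where Cyp11b1 was at least 76.2 FPKM. TIM 1 was highest in Akr1d1 (0.0554 FPKM, next 0.0148) and TIM 6 in Rspo3 (0.00719 FPKM, with the other 7 libraries at 0), both at levels of a few reads. TIM 2 was lowest in Basp1 (52.7 FPKM, next 79.0) and highest in the mean of the liver markers (0.418, next 0.183). TIM 4 was highest in the mean of the pancreatic acinar markers (2.98, next 0.869). The causes were not tested.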

How the results depend on the processing

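With 1 FPKM required in every AG and TIM library (3882 genes tested) 1684 genes were called, 773 higher and 911 lower, and 909 against TI. That filter tested fewer genes and dropped every gene below 1 FPKM in any of these libraries. It left 4 genes of the steroid list and 0 of the mitosis list to test. Without a filter 4469 genes were lower, limma-voom gave 1525 higher, and a fit of only the groups compared gave 1309 against TI. The cause was not tested for these. Leaving out single libraries gave 4293 to 5449 called, 1784 to 2451 higher, 2509 to 2998 lower and 1878 to 2785 against TI. Of 116 named genes tested, 84 kept call and direction under all alternatives that tested them, 20 lost the call in at least 1, 10 gained it and 2 changed sign without being called. These were Myl1 (-2.61 with limma-voom, -0.0378 without TIM 1 and 5) and Alas2, at -0.000289 otherwise (0.0274 with equal library medians, 0.142 without TIM 1 and 5, and -0.23 to 0.11 when single libraries were left out). Egr4 and the 4 Y-linked genes, at 0 in AG, lost their calls with limma-voom, as did Mycn, Mycl, Birc5, Top2a, Plk1, Ccnb1, Cdk1, Cdt1, Rrm2, Uhrf1 and Cbx2 (FDR 0.0563 to 0.287). When only TIM and AG entered the fit, Birc5, Top2a, Rrm2, Uhrf1 and Adgre1 lost their calls (FDR 0.0555 to 0.0688). No paired analysis was possible because the table's columns carry no replicate number of the labels. AG with 3 libraries of 1 run and values changed by the batch correction limit what the low genes can show.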

Other observations

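Some differences between the 2 tumor groups lay outside the neuronal and mitotic lists. Of 21 tested genes of cholesterol supply 6 were higher in TIM than in TI and 0 lower (median 0.38), against 10% higher and 12.9% lower over all tested genes. Among them Dhcr7, an enzyme of the last synthesis steps, was 0.731 to 2.58 FPKM, median 1.69, in TI and 2.04 to 4.42 FPKM, median 2.73, in TIM (0.54 ± 0.14, FDR 0.00816, limma). In AG it stood at 23, 19.7 and 21.9 FPKM.

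Of 27 biosynthesis genes linked to MYC 6 were higher in TIM than in TI and 1 lower. Nop2, a nucleolar RNA methyltransferase, differed by 0.89 ± 0.10, FDR 7.25e-06 and Srm, the spermidine synthase, by 0.84 ± 0.14, FDR 0.000329, while Ptma, a small nuclear protein of dividing cells, was lower (-0.88 ± 0.31, FDR 0.0456). Thy1, a surface protein of neurons as well as fibroblasts, was 0.60 to 2.99 FPKM, median 0.876, in TI and 1.41 to 23.6 FPKM, median 8.66, in TIM (2.11 ± 0.37, FDR 0.000426). Cdkn1c (p57), an inhibitor of cyclin-dependent kinases, was 0.00403 to 0.443 FPKM, median 0.222, in TI and 0.209 to 34.6 FPKM, median 7.64, in TIM (2.4 ± 0.48, FDR 0.00149), and its TIM values ran from 0.209 FPKM in TIM 8 to 34.6 in TIM 7. Cdkn2c (p18) and Cdkn1a (p21), of the same function, were lower in TIM (-1.42 ± 0.22, FDR 0.000146 and -1.36 ± 0.22, FDR 0.000204). All genes here but Thy1 and Cdkn2c were named after their values were seen, and the part of the sequencing run in these differences was not tested.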
